A study of Mus musculus with 96 samples.

Results

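Within a set of single cells sequenced as erythroid precursors from mouse bone marrow, 9 cells carried the myeloid granule transcript Mpo at high level and 9 others met a rule for erythroid cells with comparatively little alpha-globin, although 1 of these, cell 33, carried few erythroid markers. These 18 of 96 cells are compared here across all genes. All came from C57BL/6 mice of genotype Rpl11 +/lox, so that, per the labels, the cells of both sides carry 1 lox allele of Rpl11, whose product belongs to the large subunit of the ribosome. The labels name no Cre driver, no wild-type cells, no age and no animals. The series is described as spanning cells from the burst-forming unit-erythroid to the basophilic erythroblast in Rpl11 haploinsufficient mice. Capture used the Fluidigm C1, a microfluidic single-cell device, and SMART-Seq amplification. Expression is given as RPKM, reads scaled by transcript length and by the mapped reads of the cell, so levels may be compared between genes. Each gene symbol took its highest transcript value in each cell, and 69 cells with at least 1000 symbols at 1 RPKM or more were kept. The myeloid side holds kept cells with Mpo at 1000 RPKM or more and Hba-a1 below 5000 RPKM (9 cells, 13.0% of those kept, exact Clopper-Pearson interval 6.14% to 23.3%). The erythroid side holds kept cells with Mpo below 10 RPKM, Klf1 at 10 RPKM or more and Hba-a1 below 150000 RPKM (also 9 cells), and the other 51 kept cells were on neither side. Intervals cover counting error only.

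Because the sides were chosen by measured transcripts of these same cells, and because all cells share 1 genotype label with no animal named, they count as 1 sample. Every difference below is a description of these cells, with no p-value, and SDs are over cells. A difference is the mean of log2(RPKM + 1) over the myeloid-side cells minus that over the erythroid-side cells. A gene was called when its difference was at least 2 in size and it was at 1 RPKM or more in at least 50% of the cells of the higher side.

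Granulocytes, monocytes and red cells arise in the marrow from shared progenitors. On the myeloid path the factor PU.1 (gene Spi1) and C/EBP factors drive production of primary, or azurophil, granules, which are filled at the promyelocyte stage with myeloperoxidase (Mpo) and serine proteases such as neutrophil elastase (Elane), proteinase 3 (Prtn3) and cathepsin G (Ctsg). On the erythroid path GATA1 (Gata1) and KLF1 (Klf1) switch on globin genes, the enzymes of heme synthesis and the proteins of the red cell membrane. GATA1 and PU.1 are known to oppose each other's activity.

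The bases upstream of the leading genes are shown because the genes of each side were high together. Promoter entries came from RefSeq, build GRCm38.p6. The 250 bases before the start are printed 5′ to 3′ on the strand of the gene. Capitals mark AGGAAGT, a form of the ETS family core bound by PU.1, in the first 4 genes, and AGATAA or TGATAA, forms of the GATA motif, in the last 2, each searched on both strands. The regions are chr11:87793534-87793783 (plus strand) for Mpo, chr10:79886062-79886311 (plus) for Elane, chr10:79879417-79879666 (plus) for Prtn3, chr14:56102575-56102824 (minus) for Ctsg, chr8:84901732-84901981 (plus) for Klf1 and chr11:32283422-32283671 (plus) for Hba-a1.
Mpo: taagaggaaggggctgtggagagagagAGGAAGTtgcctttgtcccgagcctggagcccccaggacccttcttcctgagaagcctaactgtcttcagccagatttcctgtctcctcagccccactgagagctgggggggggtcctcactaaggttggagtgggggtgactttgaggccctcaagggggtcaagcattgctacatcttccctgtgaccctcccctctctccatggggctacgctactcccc
Elane: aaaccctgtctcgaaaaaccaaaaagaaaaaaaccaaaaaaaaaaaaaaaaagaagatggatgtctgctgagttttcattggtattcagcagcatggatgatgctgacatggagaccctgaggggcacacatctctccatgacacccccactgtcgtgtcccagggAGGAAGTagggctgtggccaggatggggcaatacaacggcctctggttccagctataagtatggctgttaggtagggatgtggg
Prtn3: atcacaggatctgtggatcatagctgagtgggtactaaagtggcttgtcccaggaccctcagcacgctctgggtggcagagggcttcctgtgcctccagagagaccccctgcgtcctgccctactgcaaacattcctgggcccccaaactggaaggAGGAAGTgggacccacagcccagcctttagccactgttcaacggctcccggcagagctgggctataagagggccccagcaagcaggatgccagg
Ctsg: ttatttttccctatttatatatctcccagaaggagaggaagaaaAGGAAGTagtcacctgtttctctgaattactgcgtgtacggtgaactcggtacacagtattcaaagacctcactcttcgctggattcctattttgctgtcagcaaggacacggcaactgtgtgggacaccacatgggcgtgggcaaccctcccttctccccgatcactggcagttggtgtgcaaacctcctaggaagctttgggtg
Klf1: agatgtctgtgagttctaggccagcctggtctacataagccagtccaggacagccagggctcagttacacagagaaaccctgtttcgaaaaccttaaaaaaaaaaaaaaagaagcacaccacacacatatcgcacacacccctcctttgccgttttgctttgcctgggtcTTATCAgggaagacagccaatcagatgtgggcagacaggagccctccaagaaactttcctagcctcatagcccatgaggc
Hba-a1: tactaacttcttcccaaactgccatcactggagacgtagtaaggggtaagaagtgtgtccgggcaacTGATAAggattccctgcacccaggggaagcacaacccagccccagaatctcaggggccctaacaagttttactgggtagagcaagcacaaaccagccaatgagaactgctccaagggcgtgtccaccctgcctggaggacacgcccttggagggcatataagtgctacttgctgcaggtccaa
AGGAAGT began 223 bases before the start in Mpo, 84 in Elane, 94 in Prtn3 and 206 in Ctsg. The GATA motif lay 80 bases before the start in Klf1, as its reverse complement TTATCA, and 183 bases before it in Hba-a1. AGGAAGT was present in 8.80% of the 27025 symbols in the promoter table, in 12.1% of 579 genes called on the myeloid side with an entry, and in 7.66% of 444 called on the erythroid side. AGATAA or TGATAA was present in 18.8% of all symbols, in 14.9% of the genes called on the erythroid side and in 11.2% of those called on the myeloid side. Of genes without overlap between the sides, 16 on the myeloid side and 14 on the erythroid side had an entry. AGGAAGT was present in 5 of 16 and 0 of 14, and the GATA forms in 1 of 16 and 3 of 14. The 5 include Mpo, Elane, Prtn3 and Ctsg, and the 3 include Klf1 and Hba-a1, whose matches are printed above. Mpo, Klf1 and Hba-a1 were also used by the rule, so these counts are not independent of the choice of genes and motifs. Without cells 12 and 33 the sets were larger and still held the printed genes. AGGAAGT was then present in 12 of 79 (15.2%) and 5 of 71 (7.04%), and the GATA forms in 12 of 79 (15.2%) and 18 of 71 (25.4%). Other motifs searched in the same way were TTGCNNAA, a form bound by C/EBP factors, in 10.8% of all symbols, 12.8% of the genes called on the myeloid side and 9.68% of those called on the erythroid side, and CCACACCC, a form bound by KLF1, in 3.68%, 4.66% and 4.50%. These motifs were chosen with the genes known, and a match describes letters, not binding.

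The granulocyte-monocyte progenitor list (at least 3 and at least 50% of its members at 10 RPKM or more) was met by 9 of 9 myeloid-side cells and the azurophil granule list by 8 of 9. The summed level of 12 late erythroid progenitor markers ran from 0.0870 to 68.3 RPKM on the myeloid side, so the label of erythroid precursor went against the transcripts of these cells. On the erythroid side 8 cells had 8 to 12 of these 12 markers at 10 RPKM or more. The ninth, cell 33, had 2, with Klf1 at 93.7 RPKM, Gata1 listed at 0 and Hba-a1 at 798 RPKM. Cell 33 met the granulocyte-monocyte progenitor and monocyte lists instead, with Ly6c2 at 10578 RPKM, Plac8 at 3905 RPKM and Prtn3 at 190 RPKM. On the myeloid side cell 12 was the shallowest, with 1842 symbols against 3556 to 6013 in the other 8, and Spi1 and Rpl11 were listed at 0 in it. Results are therefore given also without cells 12 and 33. Doublets were not called, and whether cell 33 held more than 1 captured cell was not tested. The erythroid side is low in globin within this series only: its Hba-a1 median was 23735 RPKM.

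Near the thresholds, the lowest Mpo on the myeloid side was 1543 RPKM in cell 74, and the nearest cell outside was cell 3 at 371 RPKM. The highest Hba-a1 on the erythroid side was 136054 RPKM in cell 17, and cell 71 fell outside at 161202 RPKM. Klf1 was 93.7 RPKM in cell 33 and 476 RPKM or more in the other 8, and the nearest cell outside was cell 60 at 0.237 RPKM. Estimated depth, in units of 1000 reads, was 4972 at the median on the myeloid side (1958 to 6415) and 4691 on the erythroid side (2634 to 7384). The myeloid side listed a median of 4900 symbols (1842 to 6013) and the erythroid side 3870 (2957 to 5507).

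Of 8250 genes compared, those at 1 RPKM or more in at least 3 of the 18 cells, 755 (9.15%) were called higher on the myeloid side and 581 (7.04%) higher on the erythroid side. The median difference over all genes was 0.11, and 4415 genes were higher by any amount on the myeloid side. Without cells 12 and 33 the counts were 1012 of 8075 genes (12.5%) and 611 (7.57%), of which 706 and 504 had also been called with all cells. Sides that did not overlap in any cell were rare, with 20 called genes (0.242%) on the myeloid side and 18 (0.218%) on the erythroid side. These counts were 99 (1.23%) and 87 (1.08%) without cells 12 and 33. Without cell 33 alone, 750 (9.21%) and 747 (9.17%) of 8147 genes were called, 43 (0.528%) and 89 (1.09%) of all without overlap. Rescaling every cell to a total of 1000000 moved the median of all genes from 0.11 to 0.32 and left 10 genes without overlap on the erythroid side.

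**Figure D1:**
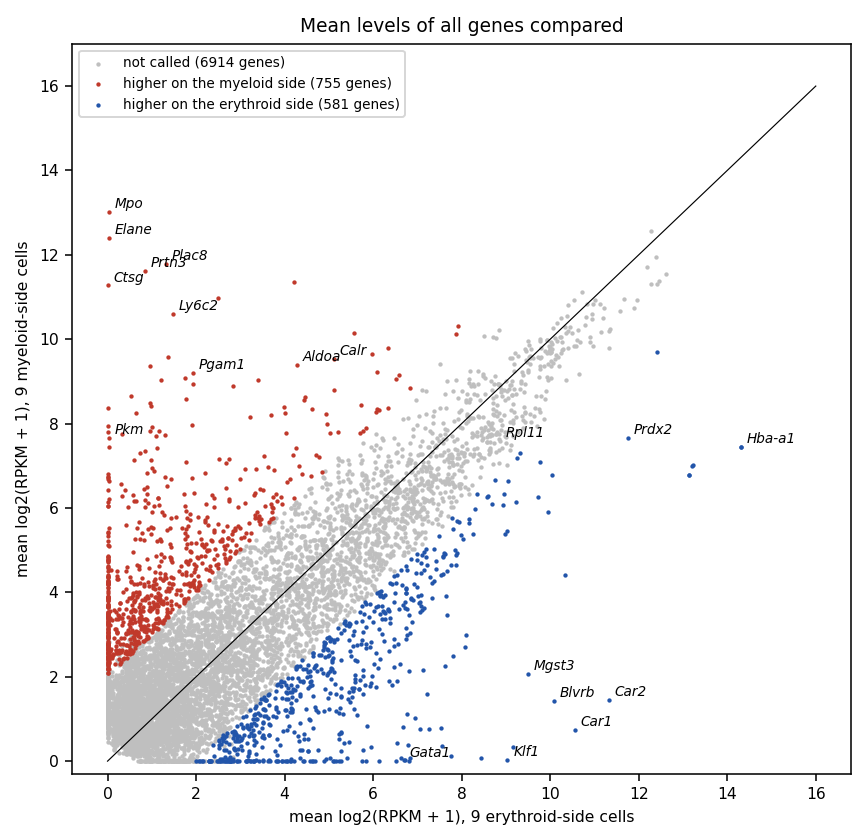
Mean log2(RPKM + 1) of each of the 8250 genes over the 9 erythroid-side cells (x axis) and the 9 myeloid-side cells (y axis), with called genes in red (755, myeloid side) and blue (581, erythroid side) and the line of equal means in black. Granule genes such as Mpo and Elane lie at the upper left with erythroid means near 0, whereas Hba-a1, at the lower right, has a myeloid mean of 7.45.

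The 20 genes without overlap on the myeloid side began with the granule enzymes. Mpo, which the rule used, was at 1543, 11336 and 18579 RPKM (lowest, median and highest) on the myeloid side and at most 0.0988 RPKM on the erythroid side. Elane was at 220, 9537 and 24064 RPKM against at most 0.216 RPKM, a difference of 12.36. Every myeloid-side cell carried Elane, and cell 74, which had the least Mpo, also had the least Elane. Ctsg was at 513, 2704 and 6056 RPKM and listed at 0 in all 9 erythroid-side cells (difference 11.27). Prtn3 was at 1221, 3508 and 8758 RPKM and was listed on the erythroid side only in cell 33, at 190 RPKM (difference 10.78, and 11.60 without cells 12 and 33). Srgn, which encodes serglycin, the proteoglycan that packs granule proteins, was at 297, 1127 and 4253 RPKM against 0, 49.9 and 203 RPKM, with no overlap and a difference of 4.56.

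Of 11 azurophil granule genes compared, 10 were called on the myeloid side and 0 on the erythroid side, beside 9.15% and 7.04% of all genes. The median difference was 6.73 (7.57 without cells 12 and 33) against 0.11 over all genes. The count of called genes includes Mpo, whose call the rule fixed, and without it 9 of 10 were called (median 6.46). The member not called was the lysosomal enzyme gene Gusb, at 1.64. Serpinb1a, an inhibitor of these proteases, was at 0, 241 and 1255 RPKM and at most 0.198 RPKM on the erythroid side. Cd63, a granule membrane protein, was at 0, 104 and 2121 RPKM and listed at 0 throughout the erythroid side. The lysozyme genes Lyz2 (6.19) and Lyz1 (4.36) were also called, and as close copies they may share reads. Of 10 granulocyte-monocyte progenitor markers 9 were called on the myeloid side, beside the same 9.15% of all genes. Plac8 was at 939, 4107 and 7194 RPKM, and cell 33, at 3905 RPKM, was the only erythroid-side cell that listed it (difference 10.47). Ms4a3, a marker of granulocyte-monocyte progenitors, was at 0, 1172 and 3323 RPKM with cells 12 and 74 at 0, and was listed at 0 on the erythroid side (difference 7.81). Clec12a, a lectin receptor, was at 68.7, 323 and 978 RPKM against a highest value of 53.6 RPKM, in cell 33, so the sides did not overlap (difference 7.62).

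**Figure D2:**
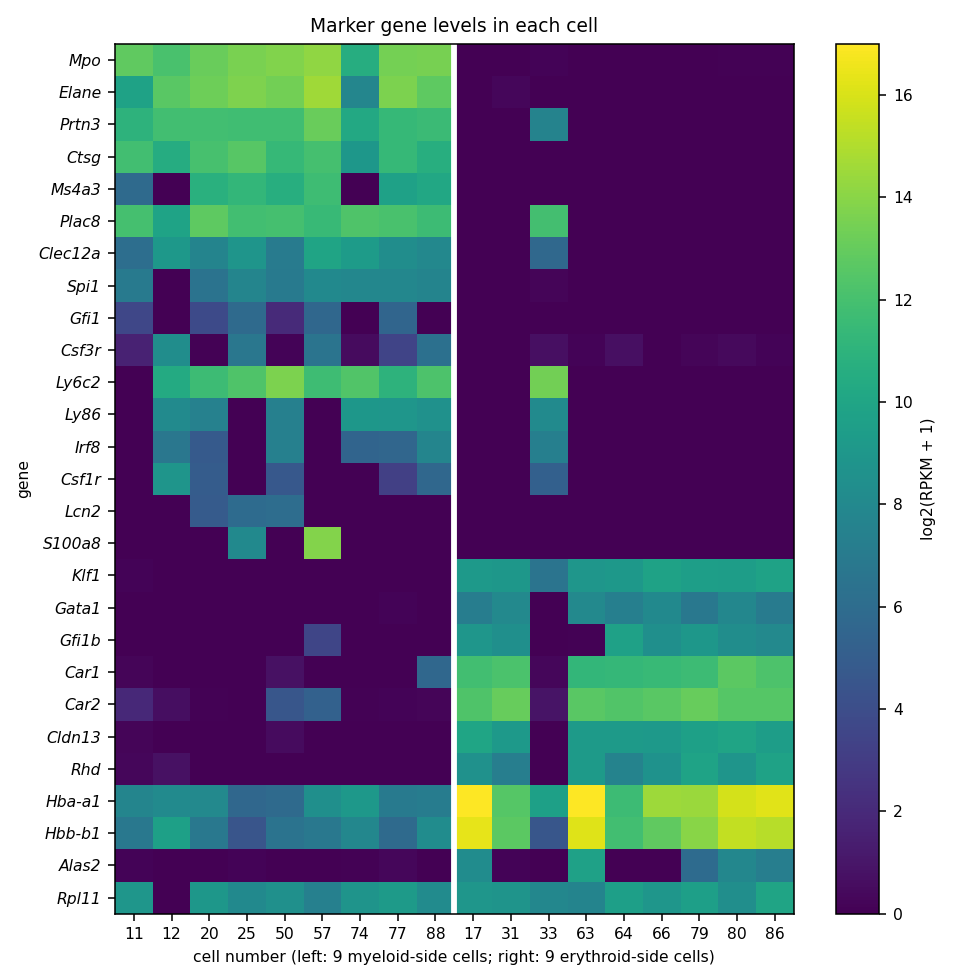
Level of 27 genes (rows, log2(RPKM + 1) by colour) in the 9 myeloid-side cells (left of the white line) and the 9 erythroid-side cells (right), with cell numbers on the x axis. Cell 33 shows Plac8 and Ly6c2, with Gata1 at 0 and Car1 near 0, and cell 57 alone is bright for S100a8.

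Among 18 myeloid transcription factor genes compared, 11 were called on the myeloid side and 0 on the erythroid side (median 2.34). Over all genes these shares were 9.15% and 7.04%. Spi1, which encodes PU.1, was at 0, 202 and 271 RPKM on the myeloid side, with 0 in cell 12, and at most 0.189 RPKM on the erythroid side (difference 6.60). Myb, a progenitor factor, was at 21.4, 65.5 and 173 RPKM in the myeloid-side cells against 0, 0.124 and 35.6 RPKM, a difference of 4.17 with overlapping sides. Gfi1 (2.95) and Cebpe (2.31), factors of granulocyte differentiation, and Irf8 (3.38), a factor of monocyte and dendritic cell differentiation, were each at or above 1 RPKM in 5 or 6 of the 9 cells. Cebpa, at 0, 2.14 and 82.5 RPKM, was called with all cells at 2.18 but not without cells 12 and 33, at 1.66.

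The receptors for the growth factors of these lineages were unevenly listed. Of 13 cytokine receptor genes compared, 5 were called on the myeloid side, beside 9.15% of all genes, and 1 on the erythroid side, a share near the 7.04% of all genes. Csf3r, the receptor for granulocyte colony-stimulating factor, was at 0.0938, 10.2 and 329 RPKM in the myeloid-side cells and at most 0.635 RPKM in the others (difference 3.49). Csf1r, the receptor for macrophage colony-stimulating factor, was at 0, 8.34 and 475 RPKM, with 5 of 9 cells at 1 RPKM or more, and its highest value was in cell 12 (difference 2.47). Tnfrsf1a (3.25) and Ifngr1 (4.00), receptors for tumour necrosis factor and interferon gamma, were called as well. The gene called on the erythroid side was Epor, the erythropoietin receptor, at 0, 9.77 and 109 RPKM against 0, 0 and 2.19 RPKM (difference -3.01). Kit, the stem cell factor receptor of early progenitors, was at 1 RPKM or more in 3 myeloid-side and 0 erythroid-side cells and was not called (1.12).

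Many leukocyte surface and adhesion genes were higher in the myeloid-side cells. Of 18 leukocyte surface genes, 13 were called there and 0 on the erythroid side, beside 9.15% and 7.04% of all genes. The list median was 4.04 (5.58 without cells 12 and 33). Tyrobp, a signalling adaptor of myeloid receptors, was at 104, 410 and 2640 RPKM, and was listed in 1 erythroid-side cell, cell 33, at 1804 RPKM (difference 7.84). The Fc receptor gene Fcgr3 was at 0, 209 and 580 RPKM and at 0 in all 9 erythroid-side cells (6.69). Of 6 genes of the phagocyte NADPH oxidase, which makes superoxide, 5 were called, among them Cyba at 6.82, Ncf4 at 4.62, Ncf1 at 3.54 and Rac2 at 3.17. The catalytic subunit gene Cybb, at 0, 2.34 and 40.7 RPKM, was called only without cells 12 and 33 (1.86 with all cells, 2.51 without).

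Actin cytoskeleton genes were called on the myeloid side in 11 of 24 cases (median 1.74), and in 14 of 23 without cells 12 and 33 (2.88). Arhgdib, a regulator of small GTPases, was at 1444, 1877 and 4453 RPKM against 0, 0 and 1482 RPKM, and the erythroid-side high was above the myeloid-side low (8.49). Coro1a, a leukocyte actin-binding protein, was at 0, 357 and 909 RPKM, with 0 in cell 12, against 1 erythroid-side cell at 1 RPKM or more (6.89). Lysosome genes were called on the myeloid side in 7 of 18 cases, beside 9.15% of all genes, and in 12 of 18 without cells 12 and 33, beside 12.5%. Leaving out either of these cells alone gave 11 of 18. The called genes included Hexa at 6.54 and Ctsz at 4.40. In the class I antigen presentation list 6 of 12 genes were called. Psmb8, a subunit of the immunoproteasome, was at 259, 790 and 2097 RPKM against 0, 0 and 399 RPKM (8.41), while B2m, the light chain of class I molecules, was at 1038, 2315 and 2635 RPKM against 890, 1508 and 2163 RPKM and was not called (0.39).

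The secretory pathway, which folds and exports granule proteins, was higher in the myeloid-side cells for 12 of 32 genes, with 0 called on the erythroid side and a median of 1.44. Among all genes 9.15% were called on the myeloid side and 7.04% on the erythroid side. The chaperones of the endoplasmic reticulum led the list. Calr (calreticulin) was at 223, 896 and 1641 RPKM on the myeloid side and at 6.81, 40.8 and 98.1 RPKM on the erythroid side, with no overlap and a difference of 4.43. Hspa5 (BiP) was at 175, 565 and 1537 RPKM against 0.0534, 67.5 and 131 RPKM, also with no overlap (3.68). Pdia4, a protein disulfide isomerase, was at 1.81, 83.2 and 162 RPKM and at most 0.244 RPKM on the erythroid side (5.49). Cell 33 was low in these genes as well, with Calr at 14.0 RPKM and Hspa5 at 25.4 RPKM. Other disulfide isomerase and chaperone genes, P4hb (4.11), Hsp90b1 (3.76) and Pdia6 (3.72), were called with overlapping sides.

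Glycolysis separated the sides as well. Of 16 genes compared, 11 were called on the myeloid side and 1 on the erythroid side, beside 9.15% and 7.04% of all genes. The list median was 3.11 (3.04 without cells 12 and 33). Pklr and Pfkm, given below, both met the rule for a call on the erythroid side, so at least 1 of them lies outside this list. Pgam1 was at 261, 657 and 1089 RPKM against 0, 0 and 149 RPKM, Aldoa at 368, 754 and 1001 RPKM against 0, 26.6 and 322 RPKM, and Gpi1 at 110, 301 and 685 RPKM against 0, 23.1 and 56.3 RPKM. In none of these 3 did the sides overlap, and the differences were 7.27, 5.12 and 4.95. For pyruvate kinase and phosphofructokinase, each side was higher in a different gene. Pkm, the pyruvate kinase gene of most tissues, was at 0, 456 and 732 RPKM in myeloid-side cells, with 0 in cell 12, and at most 0.156 RPKM in erythroid-side cells (7.65). Pklr, the pyruvate kinase gene of red cells and liver, was listed at 0 in all 9 myeloid-side cells and at 0, 30.2 and 64.9 RPKM on the erythroid side (-3.86). Phosphofructokinase showed the same division, with the platelet type Pfkp at 0, 14.7 and 61.7 RPKM against 0, 0.148 and 3.89 RPKM (2.17) and the muscle type Pfkm at 0, 0 and 35.7 RPKM against 0, 45.1 and 119 RPKM (-3.53). Hk3, a hexokinase of leukocytes, was at 0, 24.6 and 193 RPKM on the myeloid side and at 0 throughout the other (4.25).

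**Figure D3:**
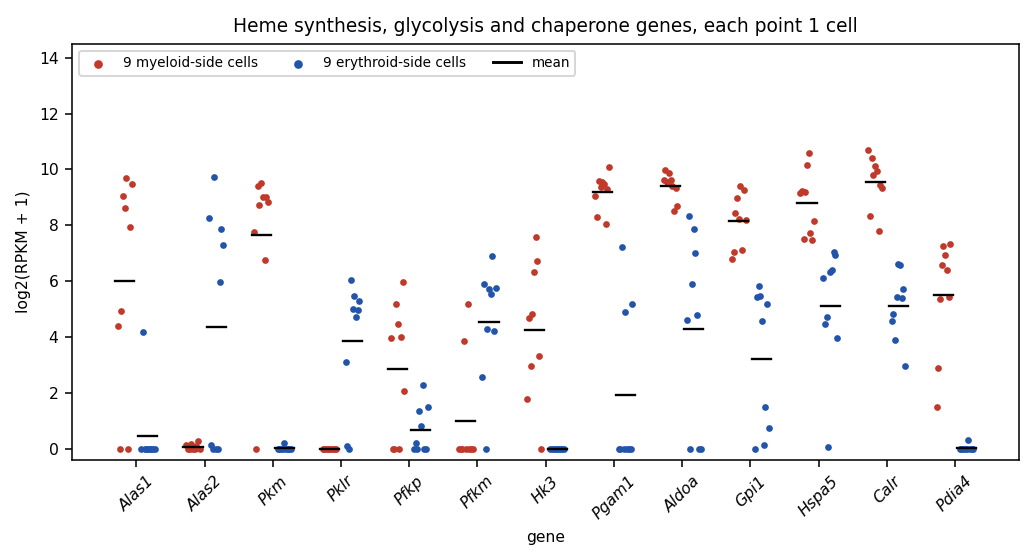
Log2(RPKM + 1) of 13 genes in each of the 9 myeloid-side cells (red) and 9 erythroid-side cells (blue), with the mean as a black bar. Alas1 and Pkm are high in red where Alas2 and Pklr are high in blue, and the red points of Pgam1, Aldoa, Gpi1, Hspa5, Calr and Pdia4 all lie above the blue ones.

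On the erythroid side the transcription factor genes of the lineage were high. Klf1, which the rule used, was at 93.7, 600 and 883 RPKM and at most 0.122 RPKM on the myeloid side. Gata1 was at 0, 161 and 262 RPKM with 0 in cell 33, and at most 0.106 RPKM on the myeloid side, a difference of -6.68 (-7.51 without cells 12 and 33). Gfi1b, a repressor needed for erythroid maturation, was at 0, 351 and 864 RPKM against a single myeloid-side value above 0, 10.6 RPKM in cell 57 (-6.40). Tal1 (-2.79), Zfpm1 (-2.92), the GATA1 partner FOG-1, and E2f4 (-2.39) completed the 6 of 20 erythroid factor genes called on the erythroid side, and 0 were called on the other. These 6 include Klf1, whose call the rule fixed, and the share called on the erythroid side over all genes was 7.04%. The list median of -0.88 was small, since 14 members were not called, among them Lmo2 (-0.09) and Nfe2 (1.08).

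All 12 late erythroid progenitor markers were called on the erythroid side, beside 7.04% of all genes. The list median was -5.78, and -6.52 without cells 12 and 33. Klf1 is a member and was used by the rule, and without it the count was 11 of 11 (median -4.89 with all cells). Car2 and Car1, carbonic anhydrases of red cells, had the largest differences. Car2 was at 0.845, 5895 and 8411 RPKM against 0, 0.177 and 37.7 RPKM (-9.87). Car1 was at 0.212, 3196 and 6774 RPKM against 0, 0 and 49.3 RPKM (-9.82). Only cell 33 made the sides of these 2 genes overlap. Cldn13 (-8.35) and Rhd (-7.64), membrane proteins of the red cell lineage, were listed at 0 in cell 33 and at most at 0.672 RPKM on the myeloid side. Early progenitor markers did not follow one side: Cd34 (4.74) and Myb were called on the myeloid side, Gfi1b and Zfpm1 on the erythroid side, and Kit and Ifitm1 on neither.

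Globin and heme genes differed together. Of 8 globin genes compared, 7 were called on the erythroid side (median -6.29). The rule used Hba-a1, and without it and its copy Hba-a2 the count was 5 of 6 (median -6.22). The 7 include the copies Hba-a1 and Hba-a2, and Hbb-b1 and Hbb-bs, whose values were nearly the same. They also include Hbb-b2 and Hbb-bt, whose values were equal (-6.35 for both). These copies cannot be told apart, so neither count is one of independent genes. Hbb-b1 was at 22.3, 15774 and 86548 RPKM on the erythroid side, with the lowest value in cell 33, and at 21.4, 110 and 826 RPKM on the myeloid side (-6.22). Hba-a1 was listed in all 9 myeloid-side cells at 49.6, 210 and 532 RPKM. The source of this globin signal was not tested. Of 14 heme synthesis genes, 11 were called on the erythroid side and 1 on the myeloid side, with a median of -4.43. Over all genes these shares were 7.04% and 9.15%. Fech, which inserts iron, was at 0, 190 and 376 RPKM against 0, 0.0693 and 26.8 RPKM (-5.93), and Uros (-5.86), Urod (-5.36) and Cpox (-4.58) were likewise called. The first step is served by a pair of genes. The red cell form Alas2 was at 0, 61.0 and 840 RPKM on the erythroid side, listed in 5 of 9 cells at 1 RPKM or more, and at most 0.208 RPKM on the myeloid side (-4.28). The housekeeping form Alas1 was the gene called on the myeloid side, at 0, 245 and 832 RPKM against 1 erythroid-side cell, cell 31, at 17.1 RPKM (5.55).

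Of 12 iron handling genes, 4 were called on the erythroid side, beside 7.04% of all genes, namely Tfrc, the transferrin receptor (-3.73), Slc11a2, an iron transporter (-2.56), Tfr2 (-2.50) and the ferritin gene Fth1 (-2.71, and -1.95 without cells 12 and 33, when it was not called). Ftl1, the other ferritin gene, was at 2032, 4715 and 8238 RPKM against 2050, 3185 and 6256 RPKM and was not called (-0.46). Of 21 genes of the red cell membrane and its skeleton, 17 were called on the erythroid side and 0 on the myeloid side (median -3.75). Rhag, an Rh-associated glycoprotein, was at 0.109, 189 and 496 RPKM against at most 0.485 RPKM (-6.75). The anion exchanger gene Slc4a1, a later marker, was at 0, 3.12 and 67.3 RPKM (-2.31). Of 14 red cell enzyme genes 10 were called. Prdx2, an abundant red cell peroxiredoxin, was at 571, 3959 and 7121 RPKM against 1.08, 307 and 558 RPKM, with no overlap (-4.10), and Blvrb, a biliverdin reductase, was at 0.323, 2606 and 4422 RPKM against 0, 0.199 and 127 RPKM (-8.65). Outside the lists, Mgst3, a microsomal glutathione transferase, had one of the larger differences among genes without overlap, at 185, 768 and 2216 RPKM against 0, 0.669 and 58.2 RPKM (-7.44).

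The transcript of the erythroid microRNA locus miR-451 was listed on the erythroid side only. The hairpins Mir451a and Mir451b overlap on opposite strands and had equal values of 0, 70.7 and 244 RPKM, with 5 of 9 erythroid-side cells above 0, against 0 in all 9 myeloid-side cells (-3.94). These are reads over the locus, not mature microRNAs, and the strand was not stated, so the pair cannot be told apart. The mature sequences, from RefSeq on GRCm38.p6, are printed because miR-451a is known as a marker of red cell maturation, with the seed (bases 2 to 8) in capitals. They lie at chr11:78073186-78073207 (plus strand) and chr11:78073219-78073239 (minus strand).
miR-451a: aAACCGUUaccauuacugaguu
miR-451b: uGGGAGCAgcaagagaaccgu
The seeds of the 2 mature forms differ. The 5 cells with the locus listed were cells 31, 63, 64, 66 and 86, which ranged in Hba-a1 from 3163 to 129407 RPKM.

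Ribosomal protein genes did not separate the sides. Of 79 cytoplasmic ribosomal protein genes, 0 were called in either direction, beside 9.15% and 7.04% of all genes, and the list median was -0.22, or 0.25 when every cell was rescaled to a total of 1000000. The mean over the list was 9.29 ± 0.52 on the myeloid side and 9.57 ± 0.30 on the erythroid side (SD, 9 cells each). Rpl11, the gene altered in these mice, was at 0, 364 and 610 RPKM against 204, 483 and 983 RPKM, with overlapping sides. Its difference of -1.28 was -0.45 without cells 12 and 33, since cell 12 listed it at 0. With no wild-type cells, its dose was not assessed. Respiratory chain genes were called in 1 of 32 cases, Cyc1 at -2.85, with a median of -0.61 (-0.22 without cells 12 and 33). Of 22 ribosome biogenesis genes 1 was called, Rrs1 at 2.39, and leaving out 1 cell at a time gave 1 to 3. The p53 target list was included because ribosomal protein defects are known to activate p53. Of its 11 genes compared 1 was called, on the erythroid side, a share near the 7.04% of all genes. Without cells 12 and 33, 1 gene was called on each side. Leaving out 1 cell at a time gave 1 to 3 on the erythroid side, with 3 when cell 33 was left out, and 0 or 1 on the myeloid side. The gene called with all cells was Mdm2, the ubiquitin ligase of p53. It was at 0, 27.4 and 67.8 RPKM on the erythroid side and 0, 0 and 12.2 RPKM on the myeloid side (-3.72). Cdkn1a, at 1.57, and Trp53, at -0.67, were not called.

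**Figure D4:**
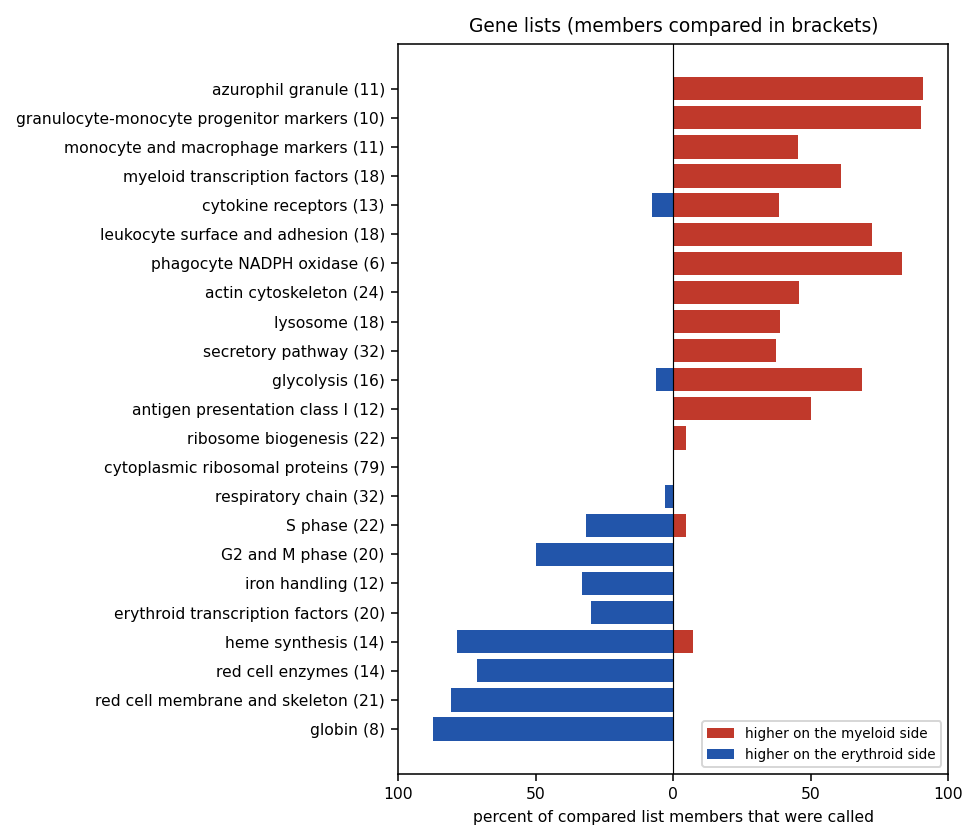
Percent of the compared members of 23 gene lists that were called on the myeloid side (red, right) or the erythroid side (blue, left), with the number compared in brackets. The azurophil granule list reaches 10 of 11 on the right and the globin list 7 of 8 on the left, whereas cytoplasmic ribosomal proteins have 0 of 79.

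Cell cycle genes were on the whole higher in the erythroid-side cells. Of 20 genes of G2 and M phase, 10 were called there, beside 7.04% of all genes, with a median of -2.03. On the myeloid side 0 were called (1 without cell 33). Ube2c, which directs degradation of mitotic cyclins, was at 22.4, 198 and 795 RPKM against 0, 1.07 and 1293 RPKM (-5.36), and Ccnb1, cyclin B1, at 71.7, 234 and 442 RPKM against 0, 23.7 and 336 RPKM (-4.21). The highest myeloid-side value of both genes was in cell 77. Of 22 S phase genes, 7 were called on the erythroid side, with a median of -1.70. On the myeloid side 1 was called, beside 9.15% of all genes. Without cell 33 alone, 15 were called on the erythroid side, and 11 without cell 50 or without cell 88. Without both cells 12 and 33 the number was 8, so this count rests on single cells. Rrm2 (-3.57) and Tyms (-3.02), which make deoxynucleotides, and Slbp (-3.08), which binds histone transcripts, were called on the erythroid side with and without cells 12 and 33. Pcna, at 99.3, 643 and 1442 RPKM against 0.405, 298 and 599 RPKM, was called with all cells (-2.03) but not without those 2 (-1.52). The histone chaperone CAF-1 was divided, with the subunit gene Chaf1a called on the myeloid side (3.29) and Chaf1b on the erythroid side (-2.76).

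The myeloid-side cells differed among themselves. Secondary granule proteins are made after the azurophil stage. The secondary and tertiary granule list is broader, also holding S100a8 and S100a9, and its signal was concentrated in cell 57. S100a8 was at 14680 RPKM, S100a9 at 4920 RPKM, Camp at 208 RPKM and Ngp at 183 RPKM in that cell. S100a8 was also listed in cell 25, at 269 RPKM, and S100a9, Camp and Ngp were at 0 in the other 8 cells. Ltf, the lactoferrin gene, was at 0 in all 9. The list mean was 4.33 in cell 57 and at most 1.67 in the others, and cell 57 also had the highest Mpo (18579 RPKM), Elane (24064 RPKM) and Cebpe (97.7 RPKM). Only Lcn2 of this list was listed in enough cells to be compared, and it was not called (1.88).

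Monocyte markers varied in a different set of cells. The mean over 14 monocyte and macrophage genes was 5.57 in cell 74, 4.42 in cell 50, 4.06 in cell 88 and 0.48 in cell 11, with cell 12 between cells 50 and 88. Cells 12, 50, 74 and 88 met the monocyte list. Ly6c2, a surface protein of inflammatory monocytes that may share reads with its close copy, was at 0 in cell 11 and at 1317 to 12981 RPKM in the other 8. Irf8 was at 0 in cells 11, 25 and 57 and at 27.1 to 210 RPKM in the other 6. F13a1, a monocyte gene, was listed only in the 4 cells that met the list, at 105 to 293 RPKM. Gfi1, by contrast, was at 0 in cells 12, 74 and 88 and at 3.15 RPKM in cell 50, while cells 25, 57 and 77 had 58.2, 49.0 and 46.0 RPKM. Cell 74 combined the highest monocyte score with the lowest Mpo, Elane, Prtn3 and Ctsg, at 1543, 220, 1221 and 513 RPKM. With 9 cells these are descriptions of single cells, not types.

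Other genes with a wide spread over the myeloid-side cells were the glutathione transferase gene Gstm1 (0, 976 and 2944 RPKM, SD 4.70 on the log2 scale), the serine synthesis gene Phgdh (0, 328 and 442 RPKM, SD 4.24) and the immediate early gene Fos (0, 33.7 and 1302 RPKM, SD 4.04). Cell 77 stood apart in the cell cycle, with a mean over G2 and M genes of 5.46 against 1.51 to 3.26 in the other 8 cells, and Ube2c at 1293 RPKM. Its S phase mean of 3.40 lay within the myeloid range of 0.61 to 6.63.

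**Figure D5:**
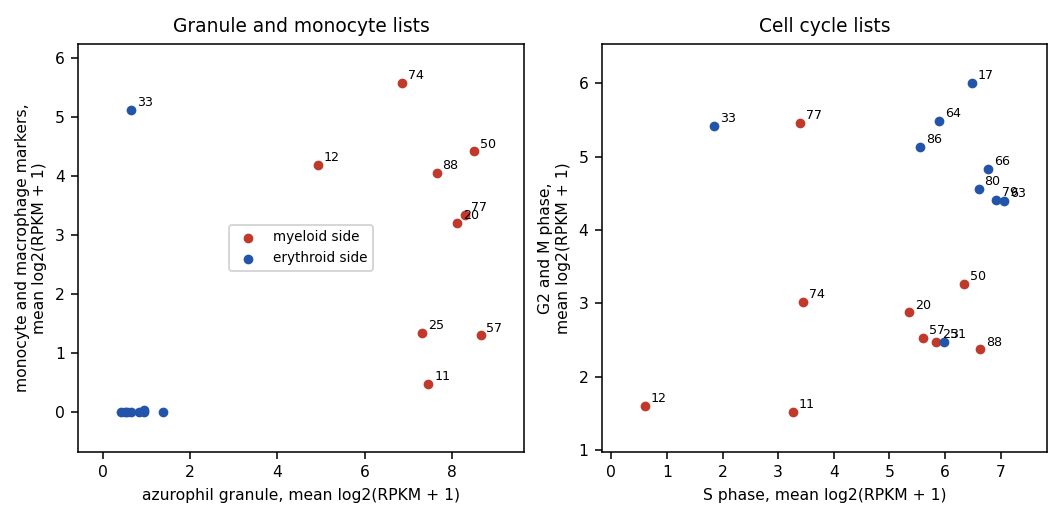
Mean log2(RPKM + 1) over gene lists in each cell (red, 9 myeloid-side cells; blue, 9 erythroid-side cells; numbers are cells, and in the left panel the erythroid-side cells near 0 are not numbered). Left, azurophil granule against monocyte genes, where cell 33 lies at 5.13 for monocyte genes and cell 11 at 0.48; right, S phase against G2 and M phase genes, where cell 77 lies at 5.46 on the y axis.

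The erythroid-side cells spanned a range of globin. Hba-a1 was at 3163 RPKM in cell 64 and 5748 RPKM in cell 31, between 22055 and 76269 RPKM in cells 66, 79, 80 and 86, and at 136054 and 129407 RPKM in cells 17 and 63. Alas2 was listed at 840 RPKM in cell 63, 309 RPKM in cell 17, 231 RPKM in cell 80, 154 RPKM in cell 86 and 61.0 RPKM in cell 79. It was under 1 RPKM in cells 31, 64 and 66, and cells 31 and 64 had the lowest Hba-a1 apart from cell 33. The embryonic globin gene Hbb-bh1 was at 318 RPKM in cell 17 and 240 RPKM in cell 63 and at 0 in cells 31, 33 and 64. The heme synthesis mean was likewise lowest in cells 64 (5.23) and 31 (5.68) among the 8 cells other than cell 33, and it was highest in cells 86 (7.06) and 63 (7.09). The mean over early progenitor markers was highest in cells 64 (2.71) and 31 (2.41), which also listed the most symbols, 5507 and 5349, and Gata2 was listed only in cell 64, at 11.1 RPKM. The number of symbols moved with these values, and its part was not tested.

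Markers of T and NK cells, B cells, eosinophils and megakaryocytes were mostly at 0 on the myeloid side, whereas those of mast cells and basophils were not. On the myeloid side 8 of 9 T and NK cell genes were at 0 in every cell, and the ninth, Nkg7, a granule membrane protein also made in myeloid cells, was at 0, 967 and 2763 RPKM (8.37). Of 10 B cell genes 8 were at 0 in all myeloid-side cells, and Cd79b was at 0, 33.3 and 192 RPKM (3.91). The summed level of the 10 mast cell and basophil genes ran from 0 to 602 RPKM on the myeloid side and from 0 to 11.9 RPKM on the erythroid side, and Mcpt8, a basophil protease gene, was at 0, 41.9 and 445 RPKM (4.76). Of the 10 mast cell and basophil genes 4 were at 0 in all myeloid-side cells and 8 in all erythroid-side cells. On the myeloid side 2 of the 3 compared were called (median 2.65), beside 9.15% of all genes. Of 10 dendritic cell genes 5 were at 0 in all myeloid-side cells, with 2 of the 4 compared called on that side (median 2.11). A gene at 0 throughout the erythroid side could be compared, and called, only through the myeloid side. For such genes the direction was fixed in advance. No eosinophil gene was listed in enough cells to be compared, and 9 of 10 megakaryocyte genes were at 0 on the myeloid side, against 6 on the erythroid side. On the erythroid side the summed level of 14 monocyte genes was at most 0.367 RPKM in 8 cells and 12622 RPKM in cell 33.

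The sample descriptions carry 3 codes, of which 2 held at least 2 cells of both sides. Code SCP-170608 held 3 myeloid-side and 3 erythroid-side cells, code SCP-1706080 held 5 and 3, and code SCP-1706013 held 1 and 3 and gave no value. The sample titles instead give all 96 cells the code SCP-1706080. The labels do not say what a code stands for, so the values within codes rest on the descriptions alone. Within these 2 codes Elane differed by 11.99 and 12.46, Ctsg by 10.81 and 11.68, Calr by 2.86 and 5.44, and Pgam1 by 7.31 and 6.76. Car2 differed by -10.70 and -7.28 and Alas1 by 5.88 and 4.01. Tmsb4x, a small actin-binding protein, was at 7.14 over all cells but at 10.81 and 1.24 within the codes, and 3.29 in the second code without cell 33. Fos, at 3.90 over all cells, was at 7.34 and -0.54 within the codes, and 2.16 in the second without cell 33. Prdx4, a peroxiredoxin of the endoplasmic reticulum, was at -2.13 over all cells and at -0.26 and -5.40 within the codes.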

How the data were processed

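RNA of 96 single cells was measured, and all samples have 1 group label. The authors deposited RPKM for 34899 transcripts of 24321 symbols. The submitters' processing notes name TopHat2 (version 2.0.9) and the mouse build mm9. How reads were counted, and on which strand, is not given in the sources used here. RPKM depends on the total of each cell, so abundant globin lowers the other values.

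With Python 3.11.15, numpy 2.4.6 and pandas 2.3.3, values were used as log2(RPKM + 1), a scale that understates differences of low genes, and an exact 0 was read as listed at 0. Depth was estimated from the steps between low values, and a step may be 1 read or 1 read pair, so absolute depths are uncertain. On simulated data the comparison missed most small changes and some large ones, and called some unchanged genes. The small changes were below the size rule, so missing them was set in advance. Both simulated sides were drawn from the erythroid-side cells, so differences in depth and globin between the real sides were not part of the simulation.

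Named genes were the rule genes and markers (Mpo, Klf1, Hba-a1, Elane, Prtn3, Ctsg, Ms4a3), Rpl11, the 4 called members of each list with the largest difference, up to 20 genes per side without overlap, and the 10 called genes per side with the widest spread and a median of 10 RPKM or more. Further list members and single-cell values were chosen with their values in view, and a few genes are not reported here. The cells, the rule and the 37 lists (15 of markers, 22 of pathways) were chosen with earlier results of these data known. The alternatives were other pseudocounts, filters, transcript sums, scalings, cell and rule thresholds, medians, sizes, codes of the sample descriptions, and leaving cells out. Coordinates are of GRCm38.p6, another build than that of the files, and were used for RefSeq sequences only.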

Additional observations from a re-analysis of the deposited data

Results flagged for a closer look

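In the groups of 9 cells, 206 values were looked at for a cell apart from the rest of its side. The values were list means and named genes on the log2(RPKM + 1) scale, symbol counts and estimated depth. The rule asked for a gap to the nearest cell, divided by the range of the side, above Dixon's 95% critical value for 9 cells. There were 63 such cases. The 95% level is nominal and is not a rate for these values. Where all other cells of a side were at 0, a single cell above 0 met the rule by construction. Some named genes had been chosen for a wide spread, and values within a cell are not independent. How many cases chance would give was not tested. Cell 33 accounted for 30 cases and cell 12 for 22.

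On the erythroid side cell 33 was apart from the other 8 cells in these list means: granulocyte-monocyte progenitor markers (4.29), monocyte and macrophage markers (5.13), late erythroid progenitor markers (1.25), erythroblast markers (1.14), erythroid transcription factors (1.30), cytokine receptors (1.66), leukocyte surface and adhesion (5.04), actin cytoskeleton (7.59), heme synthesis (1.10), red cell membrane and skeleton (0.43), red cell enzymes (1.78), S phase (1.85) and respiratory chain (7.64). It was above them in the granulocyte-monocyte progenitor, monocyte, cytokine receptor, leukocyte surface and actin lists and below them in the others. Among single genes it was below the others for Blvrb (0.40), Car1 (0.28), Car2 (0.88), Fth1 (10.16), Hbb-b1 (4.55), Hbb-b2 (4.25), Hbb-bt (4.25), Klf1 (6.56), Prdx2 (9.16), Rhag (0.15) and Ube2l6 (1.50), and Cldn13, Fech, Gata1, Ifi27, Rhd and Uros were at 0. The other 8 cells had means of 0 to 0.03 for the monocyte list and 6.08 to 8.31 for the late erythroid list.

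On the myeloid side cell 12 was apart in the list means for azurophil granule (4.93), erythroblast markers (2.11), T and NK cell markers (0), leukocyte surface and adhesion (1.47), actin cytoskeleton (4.49), secretory pathway (4.43), glycolysis (3.43) and respiratory chain (4.46). It was below the other 8 cells in all of these but the erythroblast markers, where it was above them. Its levels of Ctsz (4.22), Plac8 (9.88) and Tmsb4x (7.36) were also below the others, and Arpc1b, Chaf1a, Coro1a, Fcer1g, Nfkbia, Nkg7, Pkm, Psmb10, Psmb9, Rpl11 and Spi1 were at 0. The same cell had the fewest symbols (1842).

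Cell 57 was above the other myeloid-side cells for the secondary and tertiary granule list (4.33 against at most 1.67), Arhgdib (12.12) and the megakaryocyte list (0.28, the others at 0). Cell 77 was above them for the G2 and M phase list (5.46), and cell 11 had 0 for Ly6a and Ly6c2. On the erythroid side cell 64 was above the others for the interferon list (3.25) and for the mast cell and basophil list (0.44). Cell 31 was below them for the G2 and M phase list (2.47), cell 86 had 0 for Mdm2, and cell 80 had 0.013 for the eosinophil list where the others had 0.

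Outside the 2 sides, cell 54 listed the basophil protease gene Prss34 at 45416 RPKM and cell 56 listed Nkg7 at 8032 RPKM. In all erythroid-side cells both genes were at 0.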

How the results depend on the processing

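The counts of genes called higher on the myeloid and on the erythroid side, 755 and 581 as reported, depended on the size rule, the scale and the cells. They were 1256 and 997 with a pseudocount of 0.1, 185 and 161 with a pseudocount of 10, 1205 and 911 for differences of medians, 1481 and 1393 at a size of at least 1, and 345 and 224 at a size of at least 3. Leaving out 1 cell at a time gave 731 to 1028 and 472 to 747. Genes without overlap, 20 and 18 as reported, numbered 52 on the myeloid side without cell 12 and 89 on the erythroid side without cell 33. With cell 33 left out, globin genes removed and cells rescaled, which was chosen after seeing the data, 895 genes were called on the erythroid side. Rescaling moved the myeloid share of all calls from 56.5% to 64.7%. Within the description code with most myeloid-side cells, Fos turned to -0.54 and Timm10 to 0.11. Without cell 33 as well, also chosen after seeing the data, Dusp1 turned to -0.46 and 1049 genes were called on the erythroid side. The cause was not tested. No other named gene of 130 changed direction in the alternatives run. Of 36 list medians 7 changed sign, those of cytoplasmic ribosomal proteins, ribosome biogenesis, the interferon response, iron handling, early erythroid progenitors, stem cells and stroma. No paired analysis was possible because each replicate number names 1 cell, so the sides share none. Depth in RPKM tables is an estimate, and a gene listed at 0 in a cell may have been missed.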

Other observations

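Several genes outside the lists also separated the sides in every cell. On the myeloid side Igfbp4, a binding protein of insulin-like growth factors, was at 113, 230 and 410 RPKM (lowest, median and highest) against at most 5.87 RPKM on the erythroid side, a difference of 7.42. The histone variant gene H2afy, which encodes macroH2A1, was at 309, 490 and 719 RPKM against 0, 0 and 283 RPKM (7.01). Tnfaip8 was at 26.5, 77.4 and 188 RPKM against at most 6.46 RPKM (5.97). On the erythroid side Phf10, a subunit of a chromatin remodelling complex, was at 193, 283 and 412 RPKM against 0, 11.9 and 83.1 RPKM (-5.12). St3gal5, a sialyltransferase that makes gangliosides, was at 3.38, 52.8 and 103 RPKM against at most 0.0837 RPKM (-5.11), and Ap1b1, an adaptor protein of vesicle coats, at 5.06, 30.8 and 113 RPKM against at most 0.657 RPKM (-4.96).

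Without cells 12 and 33, genes named here after their values were seen joined them. Cmtm7, a leukocyte membrane protein, was at 407, 818 and 1536 RPKM in the other 8 myeloid-side cells and at most 0.213 RPKM in the other 8 erythroid-side cells, with a difference of 9.70. Ctse, cathepsin E, was at 310, 1561 and 2419 RPKM in those erythroid-side cells and at most 1.50 RPKM on the myeloid side, a difference of -9.96. Crip2 was at 0 in all 9 myeloid-side cells and at 63.9, 260 and 367 RPKM in the 8 erythroid-side cells (-7.65). Tspo2, a translocator protein of erythroid cells, was at 68.5, 190 and 467 RPKM in them and at most 0.545 RPKM on the myeloid side (-7.45).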
